A study of Mus musculus with 17 samples.

Results

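The insulin-like growth factor (IGF) system was followed through 10 genes: the ligands Igf1 and Igf2, the receptors Igf1r and Igf2r, and the binding proteins Igfbp2, Igfbp3, Igfbp4, Igfbp5, Igfbp6 and Igfbp7. They were taken by name from the 35896 gene identifiers of mouse RNA-seq count tables. The choice was made with earlier results of these data known, and Igfbp1, with 0 counts in all libraries, was not included. All 10 were among the 13923 genes with enough reads to be tested. The 17 libraries came from PSC4 and PSC5, lines of murine pancreatic stellate cells (the fibroblast-like cells of the pancreas) of wild-type C57BL/6J genotype, grown in Matrigel and collected on day 4. Control medium had 5 libraries, 3 of PSC4 and 2 of PSC5. TGF-beta at 20 ng/mL in control medium had 4 libraries, 2 from each line. Medium conditioned by pancreatic tumour organoids had 4 libraries, 2 from each line, and so had the same medium with neratinib, which blocks receptor tyrosine kinases of the ERBB family, at 300 nM. In PSC4 the replicate numbers 1, 2 and 3 stand for passages 23, 24 and 25, and in PSC5 the numbers 1 and 2 stand for passages 27 and 28. Every conditioned-medium library with number 1 carries the code T8 in its label and every one with number 2 the code T6, so medium code and passage cannot be told apart. A group treated with neratinib in control medium was not analysed here. Only 2 lines were used, and nothing in the labels says that libraries of 1 line came from different animals, so the p-values measure the spread between these libraries.

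As background, IGF-I and IGF-II are small secreted hormones that act mainly through the tyrosine kinase receptor encoded by Igf1r, while the product of Igf2r binds IGF-II and carries it to the lysosome. The secreted binding proteins hold the ligands outside the cell and can withhold or deliver them, and proteases that cut the binding proteins set ligand free. IGFBP7 binds IGFs only weakly and is also known as a matrix-associated protein. Fibroblasts are a main source of these proteins in many tissues, and several of the genes are known targets of TGF-beta or of inflammatory cytokines.

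Library totals were 22168953 to 29421447 counts. On these unadjusted totals, 3 counts corresponded to 0.102 to 0.135 CPM, the count scaled to library size. All other CPM values use TMM-adjusted library sizes, as described with the processing. The stellate cell label was checked against 14 stellate cell and fibroblast genes. Of these, 13 passed 3 counts in at least 1 library of each group. Col1a1 stood at 422 to 10481 CPM, Vim at 576 to 1531 CPM, Pdgfra at 56.7 to 610 CPM and Pdgfrb at 103 to 656 CPM. Lower in level were Des, at 0.583 to 3.71 CPM, and Lum, at 0.325 to 23.3 CPM. Lrat, a gene of vitamin A storage, had no count apart from 1 count in 1 library with neratinib. Of 12 TGF-beta response genes, 8 rose in the TGF-beta libraries and none fell (edgeR adjusted p below 0.05), and 4 were not called. Over all tested genes, 19.7% rose and 20.5% fell in that comparison. In conditioned medium 4 of the 12 rose and none fell against control, and with neratinib 4 rose and 2 fell. The summed level of 14 epithelial marker genes was 74.5 to 89.7 CPM in control medium and 83.8 to 142 CPM with TGF-beta. It was 66.7 and 79.5 CPM in conditioned medium with code T8, 220 and 201 CPM with code T6, 39.0 and 90.9 CPM with neratinib and T8, and 184 and 357 CPM with neratinib and T6. Most of the control sum was Sox9, at 58.6 to 69.5 CPM, while Krt8 reached 0.0709 CPM there. Sox9 stood at 63.1 to 126 CPM with TGF-beta, 36.4 to 49.2 CPM in conditioned medium and 29.2 to 38.6 CPM with neratinib. The sum therefore does not track the other markers alone. All 14 epithelial markers passed 3 counts in at least 1 library of each conditioned-medium group, with Krt8 at up to 94.0 CPM, against 8 of 14 in control medium; their part in the IGF results was not tested, and fewer cells of a type and less RNA per cell cannot be told apart in bulk samples, so the main results are also given without the T6 libraries. Of 10 macrophage and leukocyte genes, Adgre1, C1qa and C1qb had 0 counts in all libraries and Ptprc at most 1. Others of that list were present, with Cd68 at up to 12.3 CPM and Csf1r at up to 1.30 CPM. Cd14 stood at 11.2 to 15.6 CPM in control medium and 4.15 to 5.07 CPM with TGF-beta. It stood at 23.3 to 49.9 CPM in conditioned medium and 32.2 to 64.2 CPM with neratinib, and the reason was not tested. In control medium the library labelled PSC4 replicate 1 stood closer to PSC5 than to the other PSC4 libraries for Igf1, Igf2 and Igfbp4. So did the library of that label in conditioned medium for Igf1 and Igfbp4 but not for Igf2, and the one with neratinib for Igf2 and Igfbp4 but not for Igf1. The values are given below, and results that depend on them are given with and without them.

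Igfbp2, Igfbp3 and Igfbp5 showed 3 different patterns over the treatments, and the 250 bases before their annotated RefSeq start sites (mouse build GRCm38.p6) are shown for that reason. Igfbp2 and Igfbp5 lie tail to tail on chromosome 1 with 5.5 kb between their ends and no other protein-coding gene in the gap. The Igfbp2 window, at chr1:72824230-72824479 on the plus strand, is the first of 2 listed for this gene, and its capitals mark the GC box letters GGGCGG.
Igfbp2: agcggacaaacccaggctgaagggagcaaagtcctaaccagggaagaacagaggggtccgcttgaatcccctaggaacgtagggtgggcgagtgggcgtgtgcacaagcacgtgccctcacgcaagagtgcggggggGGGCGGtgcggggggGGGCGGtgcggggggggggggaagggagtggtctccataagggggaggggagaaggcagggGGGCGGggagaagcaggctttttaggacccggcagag
The window of Igfbp3 lies at chr11:7213924-7214173 on the minus strand, and its capitals mark 2 overlapping matches to the TATA-like letters TATANA.
Igfbp3: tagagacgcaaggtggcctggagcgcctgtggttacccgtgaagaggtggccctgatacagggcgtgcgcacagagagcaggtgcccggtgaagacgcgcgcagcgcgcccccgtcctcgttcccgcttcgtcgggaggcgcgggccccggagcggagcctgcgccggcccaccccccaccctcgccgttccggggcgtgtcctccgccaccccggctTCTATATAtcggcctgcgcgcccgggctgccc
The Igfbp5 window lies at chr1:72874866-72875115 on the minus strand and has neither set of letters.
Igfbp5: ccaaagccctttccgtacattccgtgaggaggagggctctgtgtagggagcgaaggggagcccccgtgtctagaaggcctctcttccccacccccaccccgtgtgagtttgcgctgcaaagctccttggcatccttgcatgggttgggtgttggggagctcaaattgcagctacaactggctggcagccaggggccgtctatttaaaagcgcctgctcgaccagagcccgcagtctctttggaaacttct
Both motifs were searched on both strands. GC boxes began at positions -113, -98 and -37 of the Igfbp2 window relative to the start, and 32.7% of the 32851 mouse promoter windows of this length held at least 1. TATA-like matches began at -32 and -30 in Igfbp3, where 22.6% of all windows held one. GC content was 67.2% for Igfbp2, 73.2% for Igfbp3 and 58.8% for Igfbp5, against a median of 52.4% over all windows. The letters CAGACA, a SMAD-type sequence held by 17.1% of windows, and the AP-1 letters TGACTCA, held by 4.46%, were found in none of these 3 windows. The second Igfbp2 window, not printed, held 1 AP-1 match at -39. No binding or chromatin measurement accompanies these windows, so the matches describe the letters only.

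Across the family, TGF-beta changed 6 of 10 genes against control, 2 higher and 4 lower, by edgeR's quasi-likelihood test at an adjusted p below 0.05, while 40.2% of all tested genes were called in that comparison (19.7% higher, 20.5% lower). Conditioned medium changed 5 of 10, 2 higher and 3 lower, with 14.2% of all genes called (7.05% higher, 7.14% lower). Conditioned medium with neratinib changed 4 of 10 against control, all 4 lower, with 43.1% of all genes called (22.2% higher, 20.9% lower). Against conditioned medium alone, neratinib lowered 2 of 10 and raised none, with 20.5% of all genes called (10.8% higher, 9.63% lower). Conditioned medium and TGF-beta differed directly in 5 of 10, 3 higher and 2 lower in conditioned medium, with 35.3% of all genes called (17.8% higher, 17.5% lower). With the replicate block, neratinib against conditioned medium gave 4 of 10, all lower, with 4563 of 13923 genes called. Without the T6 libraries, the counts were 2 of 10 for conditioned medium against control and 0 of 10 for neratinib against conditioned medium, with 1079 and 187 genes called in all and 2 libraries left in each conditioned-medium group. The libraries of the groups compared did not overlap for 6, 5, 4, 3 and 5 of the 10 genes in these comparisons, beside 32.7%, 19.8%, 29.4%, 18.7% and 31.5% of all genes. For conditioned medium with neratinib against control and for neratinib against conditioned medium, the shares of the family were near those of all genes. The median log2 fold change of the 10 genes was -0.58 for TGF-beta, -0.22 for conditioned medium, -0.50 for conditioned medium with neratinib and -0.64 for neratinib against conditioned medium, beside -0.02, 0.00, 0.00 and 0.00 over all genes. The comparisons with control share its 5 libraries and are set side by side only.

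**Figure D1:**
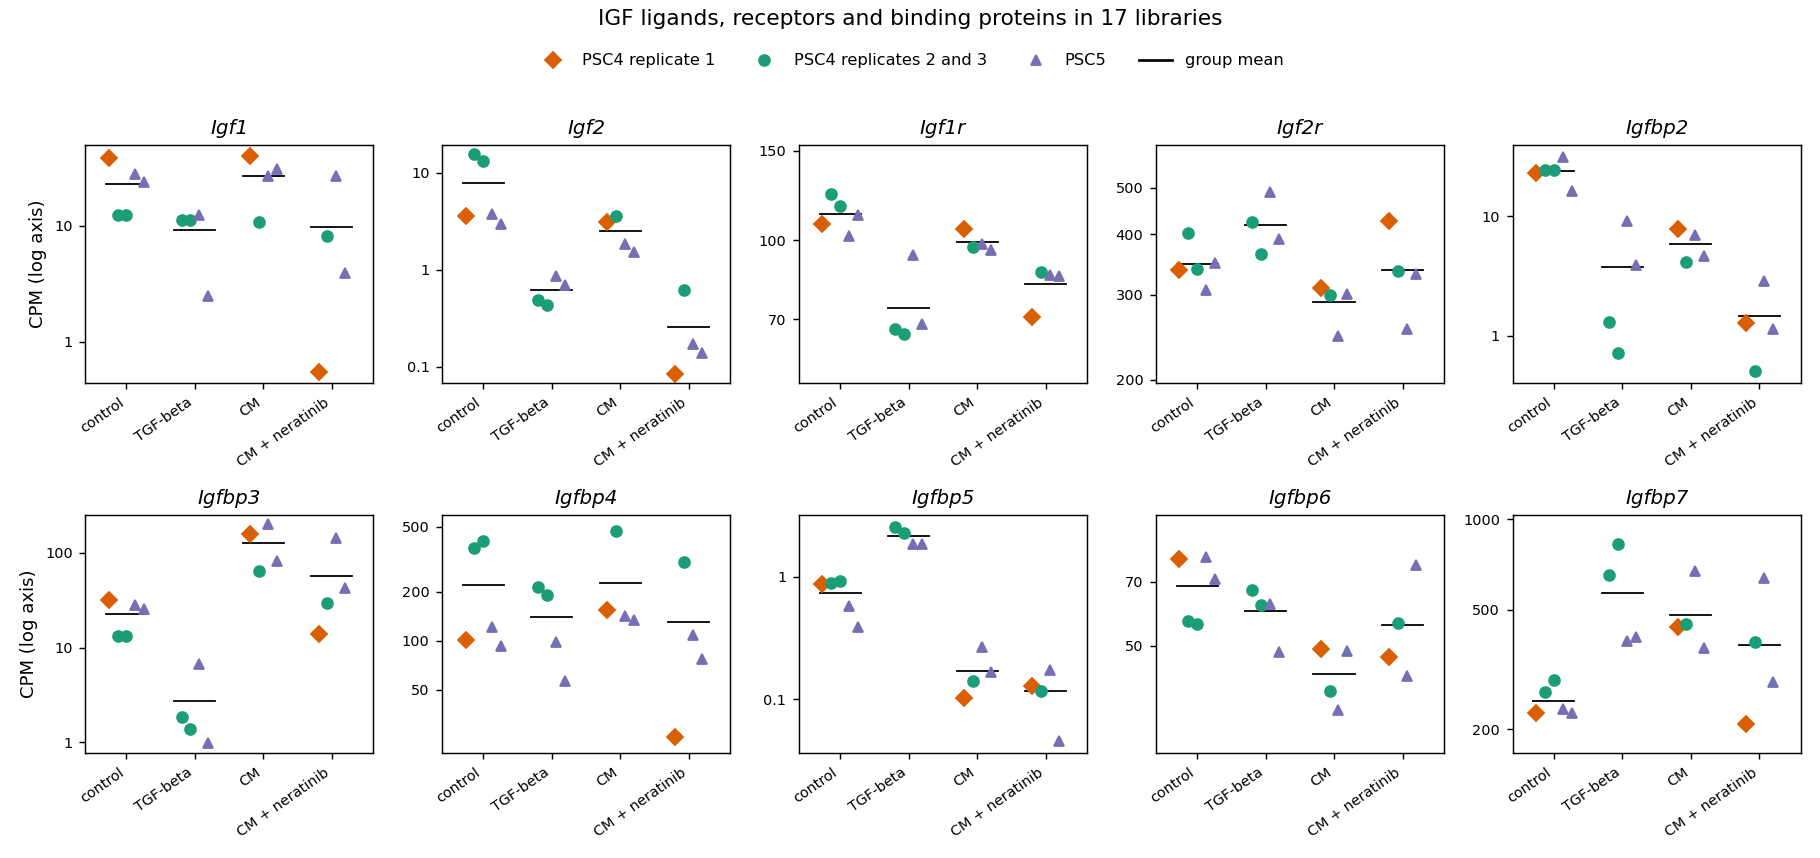
Level of each IGF family gene in CPM (library-scaled counts, log axis) in every library, by treatment, where CM is conditioned medium, black lines are group means and symbols separate the libraries labelled PSC4 replicate 1 from the other PSC4 libraries and from PSC5. Igfbp3 is lowest with TGF-beta and highest in CM, Igfbp5 is highest with TGF-beta and lowest in the CM and neratinib libraries, and Igf2 and Igfbp2 are lower in the neratinib libraries than in all control and CM libraries.

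The ligand Igf2 was lower in each of the treated groups, with calls for TGF-beta and for conditioned medium with neratinib. Igf2, on chromosome 7 (142650766 to 142666816, minus strand), encodes IGF-II and is imprinted in most tissues. In control medium it stood at 15.5 and 13.3 CPM in PSC4 replicates 2 and 3, at 3.58 CPM in the library labelled PSC4 replicate 1, and at 3.73 and 2.98 CPM in PSC5 replicates 1 and 2. Control libraries thus formed a high pair and a low trio. With TGF-beta the values were 0.488 and 0.433 CPM in PSC4 replicates 2 and 3 and 0.860 and 0.691 CPM in PSC5 replicates 1 and 2. All TGF-beta libraries lay below all control libraries, at a log2 fold change of -3.33 (s.e. 0.56, edgeR adjusted p = 0.000289), and the call held in 19 of 19 alternative analyses. The 2 high PSC4 controls and their TGF-beta partners were the widest apart of the matched pairs, with differences running from -4.78 to -1.99 on the log2 scale. In conditioned medium Igf2 stood at 3.12 and 3.56 CPM in PSC4 replicates 1 and 2 and at 1.84 and 1.54 CPM in PSC5, overlapping control. The difference from control was -1.47 on the log2 scale (s.e. 0.49, edgeR adjusted p = 0.0564) and so was not called, though all 4 matched pairs were lower and 5 of 19 alternatives called it, among them the fit without the PSC4 replicate 1 libraries (-1.57, adjusted p = 0.0300). Those libraries were set apart above by values that include Igf2, and their matched pair differed by -0.19. The call of that fit is therefore no independent test.

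With neratinib added, Igf2 fell to 0.0851 and 0.622 CPM in PSC4 replicates 1 and 2 and to 0.173 and 0.137 CPM in PSC5, which rest on 2, 16, 4 and 3 counts. Even the highest of these libraries was below the lowest conditioned-medium library. The log2 fold change was -4.74 against control (s.e. 0.61, edgeR adjusted p = 5.30e-05) and -3.27 against conditioned medium (s.e. 0.61, adjusted p = 0.00268), lower in 4 of 4 matched pairs each. The first call held in 19 of 19 alternatives and the second in 17 of 18, the exception being the fit without the T6 libraries (adjusted p = 0.0733). Igf2 was also higher in conditioned medium than with TGF-beta, by 1.86 on the log2 scale (s.e. 0.55, adjusted p = 0.0168), a call lost without T6 libraries (0.0575) or without either PSC4 library of TGF-beta (0.0673 and 0.0675). The annotation places a same-strand gene, Gm49394, over 3596 exon bases of Igf2, and that gene had 0 counts in all libraries.

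Igf1 passed no test in the comparisons. Igf1, on chromosome 10 (87858265 to 87937042, plus strand), encodes IGF-I, the main growth hormone-responsive ligand. In control medium it stood at 38.7, 12.4 and 12.3 CPM in PSC4 replicates 1, 2 and 3 and at 28.01 and 23.9 CPM in PSC5. TGF-beta libraries read 11.2 and 11.2 CPM in PSC4 replicates 2 and 3 and 12.4 and 2.48 CPM in PSC5, partly overlapping control, at a log2 fold change of -1.29 (s.e. 0.72, edgeR adjusted p = 0.172). Conditioned medium left the order of lines as in control, with 39.8 and 10.9 CPM in PSC4 and 26.7 and 31.1 CPM in PSC5. The neratinib libraries were the most scattered, at 0.553 and 8.13 CPM in PSC4 replicates 1 and 2 and 26.8 and 3.89 CPM in PSC5. Their difference from control was -1.35 (s.e. 0.74, adjusted p = 0.155). Leaving out the PSC5 replicate 1 library with neratinib, the highest of the 4, made it -2.45 (adjusted p = 0.0146). Because that fit drops the highest value, its call does not establish a fall. Per kilobase of exon, the ratio of Igf1 to Igf2 was 0.463 and 0.536 in control PSC4 replicates 2 and 3, so that Igf2 was the more abundant ligand transcript in only these 2 of the 17 libraries. Elsewhere the ratio ran from 1.77 to 89.7, the highest being PSC5 replicate 1 with neratinib.

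**Figure D2:**
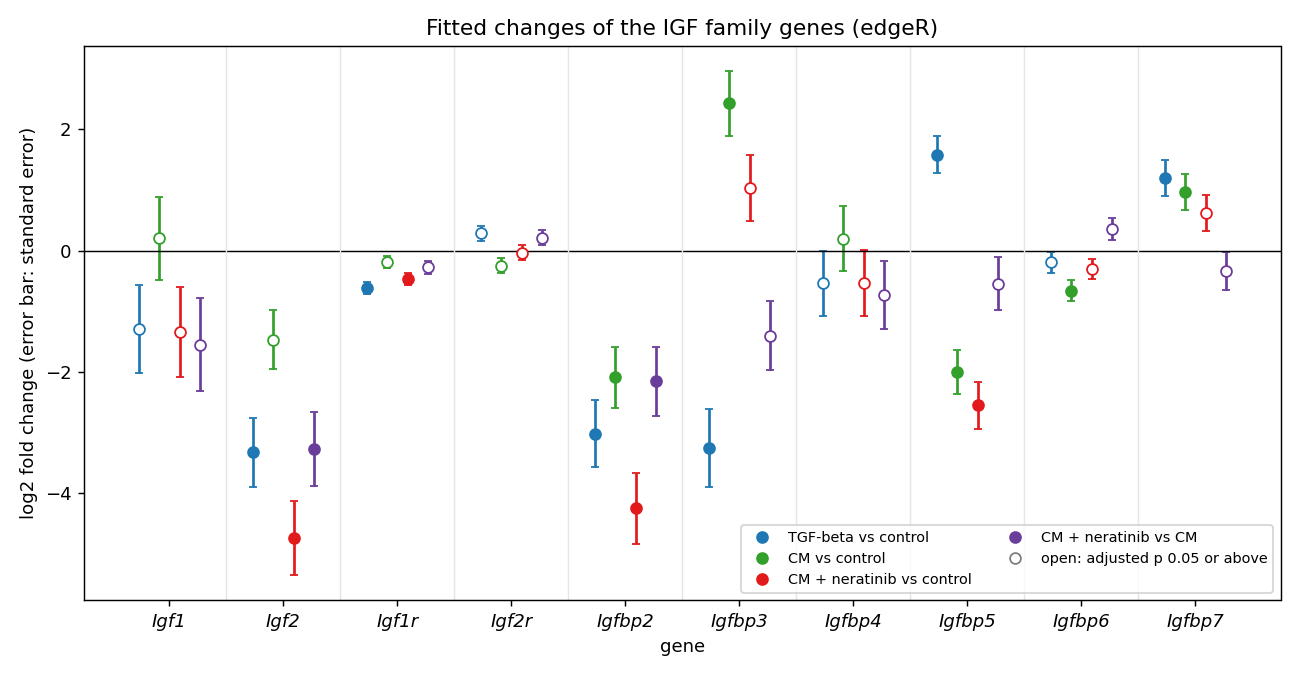
Fitted log2 fold change of each gene with its standard error in 4 comparisons, where filled points have an adjusted p below 0.05 and open points do not. Igfbp3 lies at -3.25 with TGF-beta and at 2.43 in conditioned medium (CM), Igfbp5 at 1.59 and -2.01, and Igfbp2 is below 0 in all 4 comparisons.

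The receptor Igf1r was lower with TGF-beta and with neratinib, by smaller steps than the ligand Igf2. Igf1r lies on chromosome 7 (67952827 to 68233668, plus strand). Control libraries held 102 to 123 CPM of this receptor, with a median of 112. TGF-beta libraries held 66.9 and 65.6 CPM in PSC4 and 93.7 and 68.5 CPM in PSC5, all below control, at a log2 fold change of -0.62 (s.e. 0.10, edgeR adjusted p = 0.000214). Neratinib libraries held 70.7 and 86.6 CPM in PSC4 and 85.4 and 85.1 CPM in PSC5, again all below control, at -0.46 (s.e. 0.10, adjusted p = 0.00213). Both calls held in 19 of 19 alternatives. Conditioned medium alone gave 105 and 97.1 CPM in PSC4 and 98.2 and 95.8 CPM in PSC5, which was not distinguishable from control (-0.19, adjusted p = 0.233) and higher than TGF-beta by 0.43 (s.e. 0.10, adjusted p = 0.00491). Every neratinib library was below every conditioned-medium library for Igf1r, but the difference of -0.28 did not pass the test (adjusted p = 0.0746).

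Igf2r, the IGF-II clearance receptor (chromosome 17, 12682406 to 12769664, minus strand), was the more abundant receptor transcript, at 37.2 ± 3.74 CPM per kilobase of exon in control medium (SD, n = 5) beside 6.69 ± 0.482 for Igf1r. It held 306 to 402 CPM in control medium and 365 to 490 CPM with TGF-beta, higher in 4 of 4 matched pairs. The log2 fold change was 0.29 (s.e. 0.12, edgeR adjusted p = 0.0773) and was called with the replicate block (0.32, adjusted p = 0.0406). Igf2r stood at 246 to 310 CPM in conditioned medium, below TGF-beta in a call that held in 18 of 18 alternatives (-0.54, s.e. 0.13, adjusted p = 0.00479), and at 254 to 425 CPM with neratinib. In conditioned medium, then, Igf1r was higher and Igf2r lower than with TGF-beta.

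Igfbp2 fell under all treatments. Igfbp2 (chromosome 1, 72824503 to 72852474, plus strand) encodes a binding protein with some preference for IGF-II, and its start region with 3 GC boxes is printed above. Control values were 22.97, 24.2 and 24.2 CPM in PSC4 replicates 1, 2 and 3 and 31.5 and 16.3 CPM in PSC5 replicates 1 and 2, a narrow range in which the lines overlapped. TGF-beta gave 1.31 and 0.722 CPM in PSC4 replicates 2 and 3 and 9.11 and 3.90 CPM in PSC5. No TGF-beta library reached the control range, at a log2 fold change of -3.02 (s.e. 0.55, edgeR adjusted p = 0.000527), called in 19 of 19 alternatives. Conditioned medium gave 7.78 and 4.13 CPM in PSC4 and 7.04 and 4.69 CPM in PSC5, also below all controls (-2.09, s.e. 0.50, adjusted p = 0.0148). That call was lost without T6 libraries (-1.75, adjusted p = 0.122) and without the PSC5 replicate 1 library of conditioned medium (-2.02, adjusted p = 0.0574).

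Neratinib lowered Igfbp2 further, to 1.28 and 0.506 CPM in PSC4 replicates 1 and 2 and to 2.90 and 1.15 CPM in PSC5. These 4 libraries lay below all 4 of conditioned medium, and the change was -2.16 (s.e. 0.57, edgeR adjusted p = 0.0161) against conditioned medium and -4.25 (s.e. 0.58, adjusted p = 8.33e-05) against control. The change against control was called in 19 of 19 alternatives. Against conditioned medium it was called in 13 of 18, and not without the PSC4 replicate 1 libraries (adjusted p = 0.0710), without the T6 libraries (0.185), with only the compared groups in the model (0.0509), without PSC4 replicate 1 of conditioned medium (0.0530) or without PSC5 replicate 2 of neratinib (0.0540).

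Igfbp3 moved in opposite directions with TGF-beta and with conditioned medium. Igfbp3 (chromosome 11, 7206086 to 7213923, minus strand) encodes the binding protein that carries most IGF in blood, and the TATA-like letters of its start region are printed above. In control medium it stood at 32.0, 13.2 and 13.3 CPM in PSC4 replicates 1, 2 and 3 and at 28.01 and 25.7 CPM in PSC5. TGF-beta libraries had 1.84 and 1.37 CPM in PSC4 and 6.70 and 0.976 CPM in PSC5, all below control, at a log2 fold change of -3.25 (s.e. 0.64, edgeR adjusted p = 0.000981). Conditioned-medium libraries had 159 and 64.8 CPM in PSC4 and 201 and 81.2 CPM in PSC5, all above control, at 2.43 (s.e. 0.53, adjusted p = 0.00891). Both calls held in 19 of 19 alternatives, the fit without the T6 libraries included. The direct difference between conditioned medium and TGF-beta was 5.68 on the log2 scale (s.e. 0.70, adjusted p = 2.06e-05), in the same direction in 3 of 3 matched pairs.

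Within conditioned medium, Igfbp3 was higher in the T8 libraries (159 and 201 CPM) than in the T6 libraries (64.8 and 81.2 CPM). The summed epithelial markers were lower in T8 than in T6, and a link with Igfbp3 was not tested. Code and passage cannot be told apart here. With neratinib Igfbp3 stood at 13.96 and 29.8 CPM in PSC4 replicates 1 and 2 and at 144 and 42.6 CPM in PSC5. The groups overlapped, and PSC4 replicate 1 fell below its control. Each of the 4 neratinib libraries was below its matched conditioned-medium library. The difference of -1.40 (s.e. 0.57, edgeR adjusted p = 0.0924) was not called, and with the replicate block it was (-1.33, s.e. 0.43, adjusted p = 0.0332). Against control the neratinib libraries differed by 1.03 (s.e. 0.54, adjusted p = 0.140).

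Igfbp5, at a low level throughout, rose with TGF-beta and fell in conditioned medium with and without neratinib. Igfbp5 (chromosome 1, 72857932 to 72874884, minus strand) encodes a matrix-binding member of the family often raised in fibrosis. It never exceeded 68 counts in a library, so counting error weighs on each value. Control libraries held 0.874, 0.893 and 0.916 CPM in PSC4 replicates 1, 2 and 3 and 0.575 and 0.390 CPM in PSC5. TGF-beta raised it to 2.55 and 2.27 CPM in PSC4 replicates 2 and 3 and 1.85 and 1.83 CPM in PSC5, above all controls (1.59, s.e. 0.30, edgeR adjusted p = 0.000724). Conditioned medium lowered it to 0.102 and 0.141 CPM in PSC4 and 0.268 and 0.168 CPM in PSC5, on 3 to 7 counts each (-2.01, s.e. 0.36, adjusted p = 0.00282). Neratinib libraries held 0.128, 0.117, 0.173 and 0.0458 CPM, on 1 to 4 counts each, below all controls at -2.55 (s.e. 0.39, adjusted p = 0.000168) and not distinguishable from conditioned medium (-0.54, adjusted p = 0.516). All 3 calls against control held in 19 of 19 alternatives, and conditioned medium was below TGF-beta (log2 fold change -3.59, s.e. 0.37, adjusted p = 3.95e-06).

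Igfbp7 was the most abundant binding protein transcript and was raised by TGF-beta and, less firmly, by conditioned medium. Igfbp7 lies on chromosome 5 (77349240 to 77408041, minus strand). Control libraries held 226, 266 and 292 CPM in PSC4 replicates 1, 2 and 3 and 233 and 227 CPM in PSC5. TGF-beta gave 652 and 828.7 CPM in PSC4 replicates 2 and 3 and 393 and 406 CPM in PSC5, all above control, at 1.20 (s.e. 0.29, edgeR adjusted p = 0.00451), called in 19 of 19 alternatives. Conditioned medium gave 436 and 448 CPM in PSC4 and 670 and 372 CPM in PSC5, also all above control (0.96, s.e. 0.29, adjusted p = 0.0422). This call held in 10 of 19 alternatives; it was lost without T6 libraries (1.16, adjusted p = 0.0906) and in 8 of 9 fits that left out 1 library, with 0.74 and an adjusted p of 0.160 without PSC5 replicate 1 of conditioned medium. With neratinib the values were 209, 389, 637 and 286 CPM, at 0.63 (adjusted p = 0.101) and, with the replicate block, 0.64 (adjusted p = 0.0361). Igfbp7 shares 85 exon bases with Polr2b on the opposite strand, and since strand use in the counting is not given in the sources used here, a share of the reads there cannot be assigned to either gene.

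Igfbp6, which encodes a binding protein with a strong preference for IGF-II (chromosome 15, 102144362 to 102149511, plus strand), fell modestly in conditioned medium. It held 78.8, 56.9 and 56.2 CPM in control PSC4 replicates 1, 2 and 3 and 79.5 and 71.0 CPM in PSC5, and 49.1, 39.5, 35.8 and 48.6 CPM in the 4 conditioned-medium libraries. These did not overlap control, at -0.66 (s.e. 0.17, edgeR adjusted p = 0.0206). The call was lost without T6 libraries (adjusted p = 0.05003), without PSC5 replicate 1 of control (0.0576), and without PSC4 replicate 2 (0.0630) or PSC5 replicate 1 (0.0841) of conditioned medium. TGF-beta libraries held 48.5 to 67.2 CPM (-0.19, adjusted p = 0.405) and neratinib libraries 42.7 to 76.4 CPM (-0.30, adjusted p = 0.168). The difference between conditioned medium and TGF-beta was -0.47 (adjusted p = 0.0543) and was called with the replicate block (-0.55, s.e. 0.20, adjusted p = 0.0416).

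Igfbp4 varied more between libraries of 1 treatment than between treatments. Igfbp4 (chromosome 11, 99041244 to 99054392, plus strand) encodes the binding protein that the protease PAPP-A cuts. In control medium it stood at 372 and 411 CPM in PSC4 replicates 2 and 3, at 101 CPM in the library labelled PSC4 replicate 1 and at 122 and 93.4 CPM in PSC5. TGF-beta gave 212 and 190 CPM in PSC4 replicates 2 and 3 and 98.4 and 56.3 CPM in PSC5, lower in 4 of 4 matched pairs. The line-adjusted fit gave -0.54 (s.e. 0.54, edgeR adjusted p = 0.461), and the replicate block gave a called -0.80 (s.e. 0.27, adjusted p = 0.0255). Without the PSC4 replicate 1 libraries the change was -0.72 (adjusted p = 0.00362). Those libraries were set apart above by values that include Igfbp4, so this last call is no independent test. Conditioned medium gave 155 and 474 CPM in PSC4 and 142 and 134 CPM in PSC5, each above its matched control, with no call in either fit. Neratinib gave 25.7 and 306 CPM in PSC4 and 108 and 77.6 CPM in PSC5, each below its matched conditioned-medium library. That difference was -0.73 (adjusted p = 0.385) and, with the replicate block, -1.02 (s.e. 0.28, adjusted p = 0.0157). With the block, conditioned medium was also above TGF-beta (1.21, s.e. 0.29, adjusted p = 0.00538), against 0.73 (adjusted p = 0.339) without it.

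Scaled by exon length, the 6 binding protein genes together stood at 337 ± 48.1 CPM per kilobase in control medium (SD, n = 5), 560 ± 190 with TGF-beta (n = 4), 532 ± 116 in conditioned medium (n = 4) and 413 ± 176 with neratinib (n = 4). Igfbp7 made up 59.0% to 64.8% of this sum in control medium, 79.2% to 87.3% with TGF-beta, 69.1% to 80.7% in conditioned medium and 70.2% to 82.7% with neratinib. Igfbp3 took 1.05% to 3.37% in control medium, 0.0558% to 0.521% with TGF-beta and 3.85% to 10.3% in conditioned medium, so the 3 ranges did not overlap. Igfbp2 took 3.05% to 5.38% in control medium and at most 1.20% in any treated library. Igfbp5 stayed below 0.1% throughout. In conditioned medium the median shares of Igfbp3, Igfbp6 and Igfbp4 were close, at 7.84%, 7.77% and 7.23%, and Igfbp3 came second to Igfbp7 in both T8 libraries of that group. The called changes beyond 2 on the log2 scale were those of Igfbp2, Igfbp3 and Igfbp5, each at most 10.3% of the sum. Of the rest of the family, Igfbp1, Ins1 and Ins2 had 0 counts in all libraries, Igfbpl1 had 1, and Igfals and Insrr had at most 7 and 5 in any library.

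**Figure D3:**
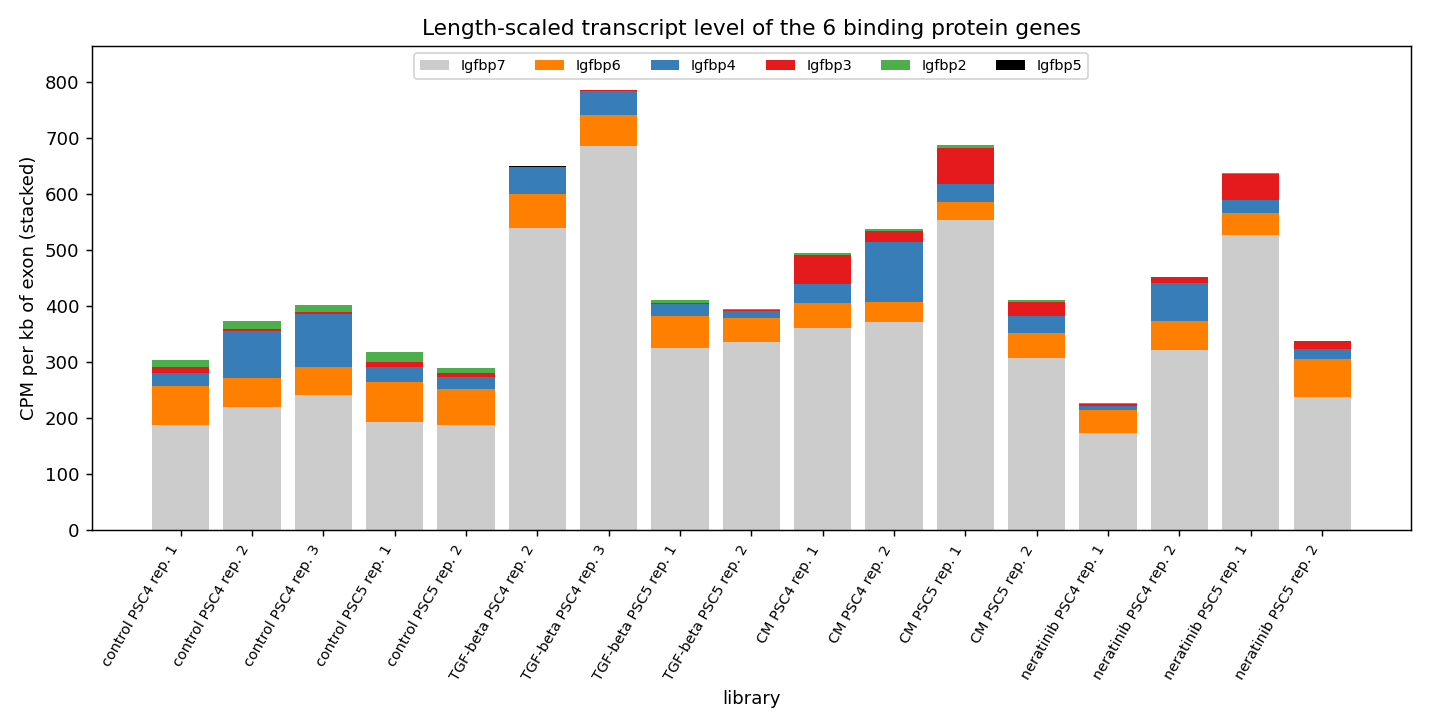
Stacked levels of the 6 binding protein genes in CPM per kilobase of exon in each library, where CM is conditioned medium and neratinib is CM with neratinib. Igfbp7 forms at least 59.0% of every bar, and Igfbp3 is widest in the CM libraries and in PSC5 replicate 1 with neratinib.

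The line was tested apart from treatment, and passage was not tested on its own. PSC4 was at passages 23 to 25 and PSC5 at 27 and 28, so line and passage cannot be told apart in these tests. With all libraries, 0 of 10 genes differed between PSC5 and PSC4 by edgeR's test of the line term (6.97% of all genes were called), and Igfbp4 came nearest (-1.23, adjusted p = 0.0678). Without the PSC4 replicate 1 libraries, 3 of 10 differed while 42.6% of all genes were called: Igfbp4 was lower in PSC5 (log2 difference -1.68, s.e. 0.13, adjusted p = 3.46e-06), Igf2 was lower (-1.18, s.e. 0.35, adjusted p = 0.0169) and Igfbp3 was higher (1.23, s.e. 0.37, adjusted p = 0.0172). The removed libraries were set apart above by values that include Igf2 and Igfbp4, so the calls of Igf2 and Igfbp4 are no independent test. No gene of the family passed the test that its TGF-beta, conditioned-medium or neratinib effect differed between the lines, by edgeR's interaction term. At an unadjusted p below 0.05 there were 3, 1 and 0 of 10, and over all 13923 genes 0 were called and 601, 43 and 237 had an unadjusted p below 0.05. Without PSC4 replicate 1, the TGF-beta effect on Igf2 differed between lines by 2.84 on the log2 scale with an adjusted p of 0.0615, and 0.0142% of all genes were called in that test.

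**Figure D4:**
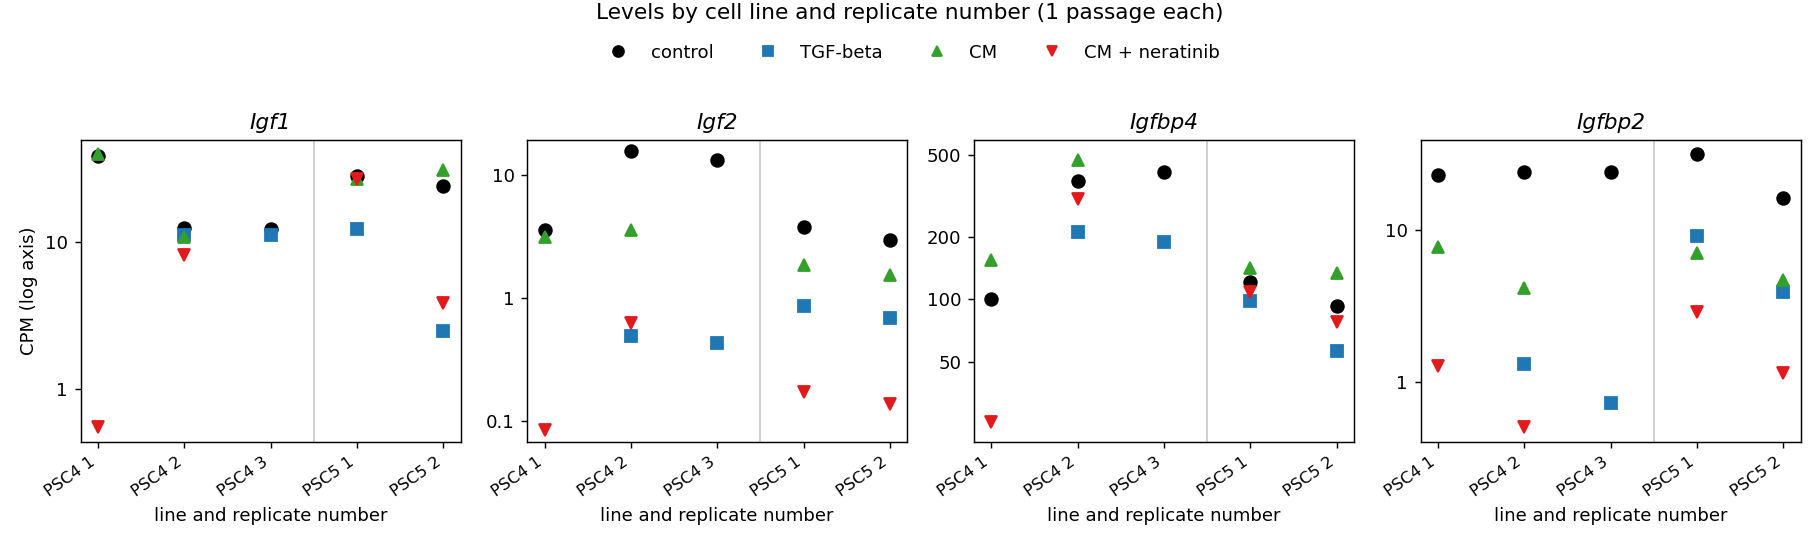
Levels of Igf1, Igf2, Igfbp4 and Igfbp2 in CPM (log axis) by line and replicate number, with 1 symbol per treatment, where CM is conditioned medium. For Igf2 and Igfbp4 the control libraries of PSC4 2 and 3 lie above those labelled PSC4 1 and PSC5, for Igf1 they lie below, and for Igfbp2 the controls of all 5 columns lie between 16.3 and 31.5.

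Proteases that cut IGF binding proteins, and their inhibitors, changed in several members under each treatment. Of 18 tested genes, TGF-beta raised 6 and lowered 5, conditioned medium raised 6 and lowered 3, and conditioned medium with neratinib raised 7 and lowered 5 against control. These are 61.1%, 50% and 66.7% of the list, beside 40.2%, 14.2% and 43.1% of all genes called. The IGFBP-4 and IGFBP-5 proteases split with TGF-beta: Pappa rose from 6.82 ± 1.99 to 27.9 ± 20.2 CPM (1.85, s.e. 0.46, edgeR adjusted p = 0.00513) and Pappa2 fell from 2.34 ± 0.404 to 0.603 ± 0.0838 CPM (-1.88, s.e. 0.36, adjusted p = 0.000767; SD, n = 5 and 4). Stc2, which encodes stanniocalcin-2, an inhibitor of these pappalysin proteases, rose in conditioned medium from 6.11 ± 2.66 to 24.3 ± 5.45 CPM (2.10, s.e. 0.23, adjusted p = 7.08e-05) and stood at 41.8 ± 5.06 CPM with neratinib (2.86, s.e. 0.23, adjusted p = 1.19e-06 against control). Stc1, of the same family, stood at 17.996 ± 8.76 CPM with neratinib beside 4.33 ± 2.98 CPM in control medium (2.09, s.e. 0.60, adjusted p = 0.0121). Adam12, which encodes a protease that cuts IGFBP-3 and IGFBP-5, rose with TGF-beta (1.83) and fell in conditioned medium (-1.45), as Igfbp5 did. Mmp3, a matrix protease, had the opposite order (-1.74 and 2.76), as Igfbp3 did, and Adamts1 fell under all 3 treatments (-2.65, -1.18 and -1.44). Timp1, an inhibitor of matrix proteases, rose with TGF-beta (1.45, adjusted p = 0.000435).

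**Figure D5:**
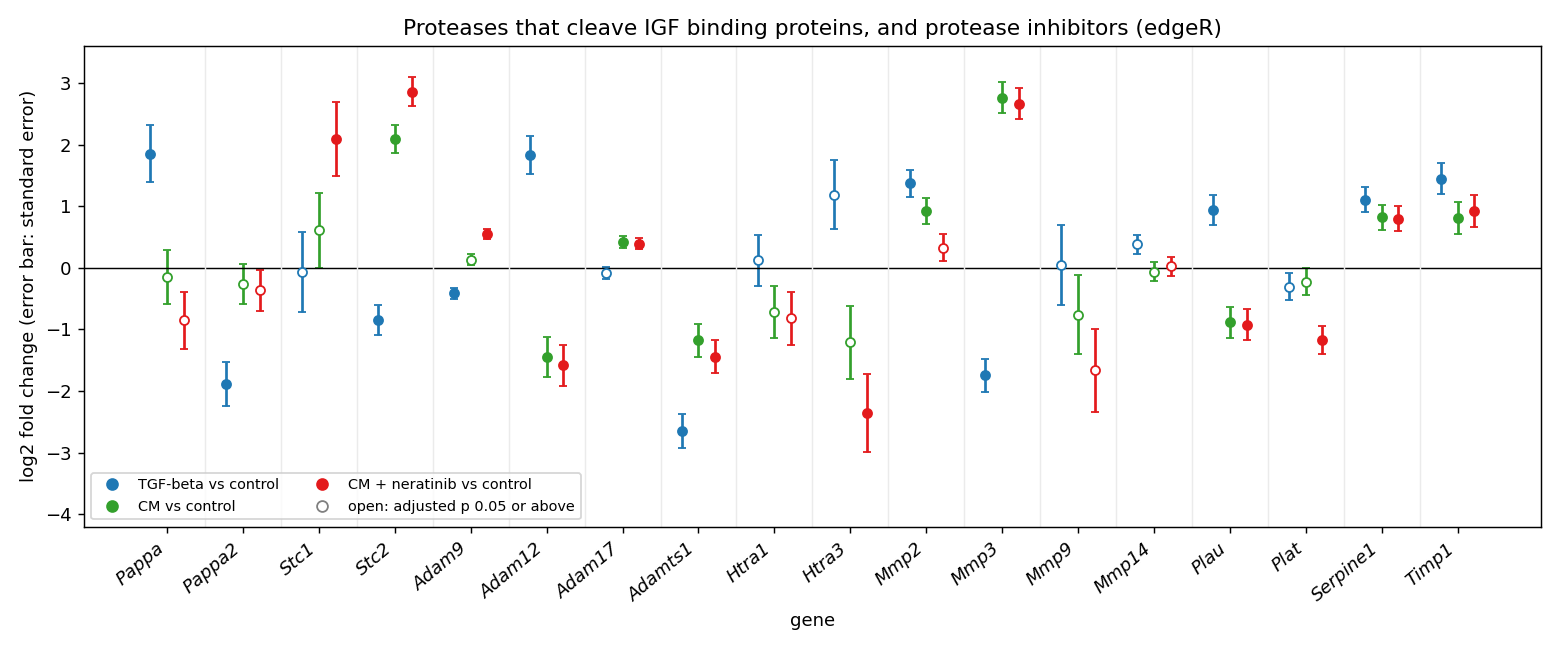
Fitted log2 fold change against control, with its standard error, of the 18 tested genes of IGF binding protein proteases and protease inhibitors under 3 treatments (CM is conditioned medium), where filled points have an adjusted p below 0.05. Pappa and Adam12 lie above 0 with TGF-beta, Stc2 and Mmp3 lie above 0 in CM with and without neratinib, and Adamts1 lies below 0 in all 3.

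Downstream of the receptor, the lists were read against all genes, of which 40.2%, 14.2% and 43.1% were called with TGF-beta, in conditioned medium and in conditioned medium with neratinib against control. Among 13 receptor substrates and adaptors, TGF-beta raised 1 and lowered 4, conditioned medium raised 0 and lowered 1, and conditioned medium with neratinib raised 1 and lowered 4 against control. These are 38.5%, 7.69% and 38.5% of the list, at or below the shares of all genes. Irs1, the docking protein of the activated receptor, fell in conditioned medium with neratinib from 82.2 ± 5.84 to 29.6 ± 4.71 CPM (-1.46, s.e. 0.20, edgeR adjusted p = 8.66e-05). Grb14, which encodes an adaptor that inhibits the insulin receptor, fell with TGF-beta from 10.7 ± 1.78 to 1.86 ± 0.877 CPM (-2.55, s.e. 0.40, adjusted p = 0.000152). Among 23 tested genes of the PI3K, AKT and mTOR core, 8 rose and 2 fell with TGF-beta, 1 rose and 1 fell in conditioned medium, and 6 rose and 8 fell in conditioned medium with neratinib, which are 43.5%, 8.70% and 60.9% of that list. Deptor, an inhibitor of mTOR, fell with TGF-beta (-2.08) and in conditioned medium with neratinib (-2.10). Eif4ebp1, which encodes a repressor of translation that mTOR inactivates, rose with neratinib over conditioned medium from 90.8 ± 3.28 to 228 ± 62.0 CPM (1.33, s.e. 0.14, adjusted p = 6.26e-05), called in 18 of 18 alternatives.

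FOXO factors and genes regulated by FOXO, which IGF signalling is known to restrain through AKT, numbered 19 tested. Of these, 3 rose and 9 fell with TGF-beta, 2 rose and 2 fell in conditioned medium, and 3 rose and 8 fell in conditioned medium with neratinib against control. That is 63.2%, 21.1% and 57.9% of the list, beside 40.2%, 14.2% and 43.1% of all genes called, of which 20.5%, 7.14% and 20.9% were lower. The median log2 fold changes of the list were -0.35, -0.18 and -0.46, beside -0.02, 0.00 and 0.00 over all genes. Pik3ip1, which encodes an inhibitor of PI3K, fell from 25.02 ± 3.75 CPM in control medium to 8.93 ± 2.36 CPM with neratinib (-1.45, edgeR adjusted p = 1.68e-05). Gadd45a, a stress gene, moved the other way and rose with TGF-beta (2.73, adjusted p = 8.88e-08), as it did in conditioned medium with neratinib (1.33, adjusted p = 0.000109). In the growth hormone axis, which drives Igf1 in liver, 7 of 9 genes fell with TGF-beta and none rose, beside 20.5% of all genes called lower. Cish, a feedback inhibitor induced by STAT5, fell from 16.8 ± 1.94 to 6.00 ± 0.373 CPM (-1.49, adjusted p = 4.94e-05), and Socs2, of the same class, fell from 24.2 ± 3.97 to 10.9 ± 4.41 CPM (-1.15, adjusted p = 0.00633). In conditioned medium 3 of these 9 rose and none fell, beside 7.05% of all genes called higher, with Stat5a at 0.86 (adjusted p = 0.00889). In conditioned medium with neratinib 2 rose and 2 fell against control, or 44.4% of the list beside 43.1% of all genes.

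The genes most like each family member over the 17 libraries were found by Pearson's r of log2 CPM, which carries treatment, line and passage together and is given as a description. Igfbp3 was closest to Serping1 (r = 0.98) and Cp (r = 0.97), which encode the C1 inhibitor of complement and ceruloplasmin. Igfbp5 was closest to Gper1 (r = 0.96) and Cxxc5 (r = 0.96), and Igfbp2 to Plekhh2 (r = 0.96) and Ddb2 (r = 0.96). Igf2 was closest to Fbxl12 (r = 0.94), Igf1 to Parva (r = 0.96), Igf1r to Ggt7 (r = 0.95), Igf2r to Syne1 (r = 0.90), Igfbp4 to Lrp5 (r = 0.96), Igfbp6 to Phlda3 (r = 0.86) and Igfbp7 to Sdc1 (r = 0.93). Within the family the highest values joined Igf2, Igf1r and Igfbp2 (r = 0.82 for Igf2 with Igf1r, 0.82 for Igf2 with Igfbp2 and 0.81 for Igf1r with Igfbp2), and the lowest paired Igfbp3 with Igfbp5 (r = -0.81).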

How the data were processed

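Messenger RNA libraries were sequenced from 17 cultures. The authors deposited 1 table of expected counts per library, with 35896 gene identifiers each; the submitters' processing notes name Salmon 1.4.0, DESeq 2 and the builds GRCm38 and mm10. The deposited expected counts (74.8% of values above 0 were not whole) were rounded, which moved no library total by more than 307.9. Symbols, exon lengths and positions came from GENCODE annotation of GRCm38, with 35437 identifiers matched, and H19 was not analysed here. The strand setting of the counting is not given in the sources used here.

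Counts were tested with edgeR 4.0.16 in R 4.3.3 (filterByExpr, TMM, glmQLFit and glmQLFTest on group plus cell line, all 17 libraries in 1 fit), with Benjamini-Hochberg adjustment over 13923 genes. The biological coefficient of variation was 19.8%. Alternatives were other scaling factors, no filter, no line term, a replicate block, only the compared groups, removal of the PSC4 replicate 1 or T6 libraries, counting PSC4 replicate 1 with PSC5, DESeq2 1.42.0 and leaving out each library. The test was tried on simulated data with 200 changed genes first. CPM are counts scaled to TMM-adjusted library size, and levels between genes are compared only per kilobase of exon.

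Replicate numbers stand for passages, per the labels, and were taken to pair the libraries. In all 22 pairs of libraries with the same line and number the deviations from the group means correlated above 0.1 (0.120 to 0.635, median 0.299). So did 14 of 32 pairs with the same line and another number (highest 0.613, median -0.0756). Of pairs from different lines, 14 of 54 did (highest 0.384, median -0.183). The correlations alone thus do not establish pairing by number. Named genes were the 10 members, up to 3 called genes rising most and 3 falling most per pathway list and comparison, provided 1 group averaged 1 CPM or more, and the 2 genes most like each member. The members and lists were chosen with earlier results of these data known. Start-region sequences are from RefSeq (GRCm38.p6), with 10 of 10 members matched.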

Additional observations from a re-analysis of the deposited data

Results flagged for a closer look

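In 7 of 40 sets of libraries (10 genes in 4 groups), 1 library stood apart from the rest of its group by Dixon's criterion, which chance alone meets in about 1 set in 20. In the TGF-beta group these were Igf1 in PSC5 replicate 2, the lowest at 2.48 CPM, and Igf1r and Igfbp3 in PSC5 replicate 1, the highest at 93.7 and 6.70 CPM. In conditioned medium they were Igf2r in PSC5 replicate 1, the lowest at 246.0 CPM, and Igfbp4 in PSC4 replicate 2, the highest at 474.3 CPM. With neratinib they were Igf1r in PSC4 replicate 1, the lowest at 70.7 CPM, and Igf2 in PSC4 replicate 2, the highest at 0.622 CPM. No reason for these differences was tested.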

How the results depend on the processing

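With the replicate block, which accounts for passage, genes called numbered 3240 in conditioned medium against control and 4563 for neratinib against conditioned medium, beside 1976 and 2850 without it, and family members called in the latter rose from 2 to 4; the other changes of call with the block stand beside the results. Without the T6 libraries, members called fell from 5 to 2 in conditioned medium against control and from 2 to 0 for neratinib against conditioned medium, and all genes called to 1079 and 187; this leaves 2 libraries in each conditioned-medium group. Neratinib against conditioned medium gave 1 member called without the PSC4 replicate 1 libraries and 1 with only the compared groups in the model (602 genes), and counting PSC4 replicate 1 with PSC5 gave 2986 genes for conditioned medium against control. Leaving out 1 library at a time gave 6 to 7 members and 4750 to 5516 genes for TGF-beta, 2 to 5 and 801 to 1793 for conditioned medium, 4 to 5 and 4952 to 6258 for conditioned medium with neratinib against control, 1 to 5 and 1748 to 3685 for neratinib against conditioned medium, and 4 to 6 and 4079 to 4619 for conditioned medium against TGF-beta. The sign turned for Igf1 in conditioned medium without its PSC4 replicate 1 library (range over left-out libraries -0.26 to 0.59), for Igfbp4 there without T6 (-0.34), without control PSC4 replicate 1 or without its PSC4 replicate 2 library (range -0.13 to 0.45), and for Igf2r with neratinib against control without control PSC4 replicate 2 or without PSC5 replicate 1 of neratinib (range -0.15 to 0.067); none of these was called in either form. The cause of these changes was not tested. Igfbp5 in the conditioned-medium groups and Igf2 with neratinib rest on few counts, which limits the size of their fold changes.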
